A study of Mus musculus with 5 samples.

Results

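The genes described here encode cytochrome P450 enzymes and other enzymes that metabolise foreign compounds, measured in the lungs of mice with allergic airway inflammation. They were chosen by gene symbol, with earlier results of these data known. Every gene of the Cyp, Aldh, Fmo, Ugt, Sult, Akr, Ces, Ephx and Nqo families was taken where a probe named no other gene. That probe also needed values from 4 or 5 of the 5 arrays. This gave 81 genes, each with 1 probe, of 9715 genes measured under the same condition. The arrays compared lungs of C3H mice, an inbred strain, after sensitisation to ovalbumin, an egg-white protein used as an allergen, and challenge with it (ova mice), with 1 pool of lung RNA from control C3H mice. Each of the 5 ova mice was hybridised against this pool on its own 2-colour array, and RNA was amplified beforehand. No source used here gives the number of control mice in that pool or the age and sex of the animals, and no array holds a single control mouse.

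Phase I enzymes put a reactive group on a lipophilic compound or expose one. Cytochromes P450 do this with electrons from a reductase, flavin-containing monooxygenases (Fmo) oxidise nitrogen and sulphur, carboxylesterases (Ces) cleave esters, and aldehyde dehydrogenases (Aldh) and aldo-keto reductases (Akr) oxidise or reduce aldehydes and ketones. Epoxide hydrolases (Ephx) open the epoxides that P450s make, and sulphotransferases (Sult) and glucuronosyltransferases (Ugt) conjugate the products for export. In mouse lung the secretory club cells of the small airways are known for their high content of P450s, and some members of the same families make sterols, steroids, retinoic acid or amino acids instead of clearing foreign compounds.

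The deposited values are log ratios whose base and numerator are not stated. Base 2 was assumed. Array titles put the ova mouse first, but the labels give no dye, so each gene is described by its side of the deposited ratio. All 6 goblet cell markers measured, mucus genes that rise in allergic airways, had negative ratios, led by Clca1 at -4.33 ± 0.40 (SD, n = 5; limma adjusted p = 3.88e-06). If these markers rose in the ova mice, a negative ratio stands for more RNA in the ova mouse than in the pool, and a positive ratio for less. The direction was not tested. Values below are log ratios after centring each array on its median. A gene passed where limma's moderated test against a ratio of 0, adjusted over all 9715 genes by the Benjamini-Hochberg method, gave p under 0.05.

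Promoters of 5 of the enzyme genes that lay clearly on one or the other side are shown to set the regulatory sequence beside the values. Each is the 250 bases before the transcript start from RefSeq, build GRCm38.p6. Cyp2f2 (chr7:27119705-27119954, plus strand), Cyp4b1 (chr4:115647722-115647971, minus strand) and Cyp2b10 (chr7:25897408-25897657, plus strand) lay on the positive side. Cyp51 (chr5:4104698-4104947, minus strand) and Aldh9a1 (chr1:167349741-167349990, plus strand) lay on the negative side. Capitals mark letters that match, on either strand, the core of the xenobiotic response element GCGTG, the antioxidant response element TGANNNNGC, the sterol response element TCACNCCAC, a C/EBP motif TTGCNNAA or the FOXA motif TGTTTAC.
Cyp2f2: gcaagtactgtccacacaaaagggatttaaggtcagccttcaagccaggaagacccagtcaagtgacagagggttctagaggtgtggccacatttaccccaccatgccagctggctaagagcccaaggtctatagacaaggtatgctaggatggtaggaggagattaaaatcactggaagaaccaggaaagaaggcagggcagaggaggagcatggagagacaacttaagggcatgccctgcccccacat
Cyp4b1: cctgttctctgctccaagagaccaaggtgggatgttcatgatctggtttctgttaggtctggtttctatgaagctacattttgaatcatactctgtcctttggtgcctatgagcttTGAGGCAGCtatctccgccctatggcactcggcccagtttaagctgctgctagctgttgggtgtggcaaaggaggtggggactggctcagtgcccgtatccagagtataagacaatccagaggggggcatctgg
Cyp2b10: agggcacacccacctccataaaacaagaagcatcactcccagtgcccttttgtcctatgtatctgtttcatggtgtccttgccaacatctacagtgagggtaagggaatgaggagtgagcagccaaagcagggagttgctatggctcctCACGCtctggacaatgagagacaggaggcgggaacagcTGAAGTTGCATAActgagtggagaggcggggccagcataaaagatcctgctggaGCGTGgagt
Cyp51: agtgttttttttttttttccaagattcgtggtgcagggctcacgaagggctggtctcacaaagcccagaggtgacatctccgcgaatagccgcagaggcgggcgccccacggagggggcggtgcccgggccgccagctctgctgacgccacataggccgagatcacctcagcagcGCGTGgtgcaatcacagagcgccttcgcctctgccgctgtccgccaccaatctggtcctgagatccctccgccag
Aldh9a1: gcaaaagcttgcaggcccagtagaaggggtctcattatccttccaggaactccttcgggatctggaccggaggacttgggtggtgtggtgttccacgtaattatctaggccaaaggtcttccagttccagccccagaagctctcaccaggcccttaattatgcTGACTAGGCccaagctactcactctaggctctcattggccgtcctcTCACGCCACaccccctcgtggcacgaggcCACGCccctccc

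The Cyp2f2 window held none of these letters, that of Cyp4b1 held 1 antioxidant element match and that of Cyp51 1 xenobiotic core. The Cyp2b10 window held 4 matches, of which the antioxidant element and the C/EBP motif overlapped. The Aldh9a1 window also held 4, of which the sterol element and a xenobiotic core overlapped. Of the 81 genes, 63 had a promoter entry. The xenobiotic core was present in 15 of these 63 (23.8%), against 30.9% of the 27025 genes with an entry, and the antioxidant element in 25 (39.7%), against 38.7%. The C/EBP letters were present in 16 (25.4%), against 10.8% of all genes: in 3 of 10 genes that passed on the positive side, 0 of 9 on the negative side and 13 of 44 that did not pass. The sterol element was found in 1 (Aldh9a1), against 1.22% of all genes, and the FOXA motif in 4 (6.35%), against 3.54%. These are counts of letters, not of bound sites.

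Of the 81 enzyme genes, 14 passed on the positive side (17.3%), against 12.3% of all genes, and 12 on the negative side (14.8%), against 15.2% of all genes. In total 26 passed (32.1%), against 27.5% of all genes, and 55 did not. The share on the negative side was thus near that of all genes, and the median ratio was 0.04, against 0.00 over all genes. Of the 81 enzyme genes, 7 had a mean ratio beyond 0.5 in size, against 616 of all 9715 genes. The 7 were Cyp2f2, Ephx1, Sult1a1, Cyp4b1, Cyp2b10, Aldh2 and Cyp2d22, all on the positive side. No enzyme gene reached below -0.49. The sides of the 616 were not counted. With mouse 5 left out, 10 of 84 enzyme genes passed above 0 and 4 below 0, against 6.71% and 9.28% of all genes. Without mouse 2 the counts were 11 and 6 of 82, against 8.04% and 11.3% of all genes. Without mouse 3 they were 10 and 6 of 85, against 7.18% and 9.27%. The shares over all genes were thus also lower in these fits.

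**Figure D1:**
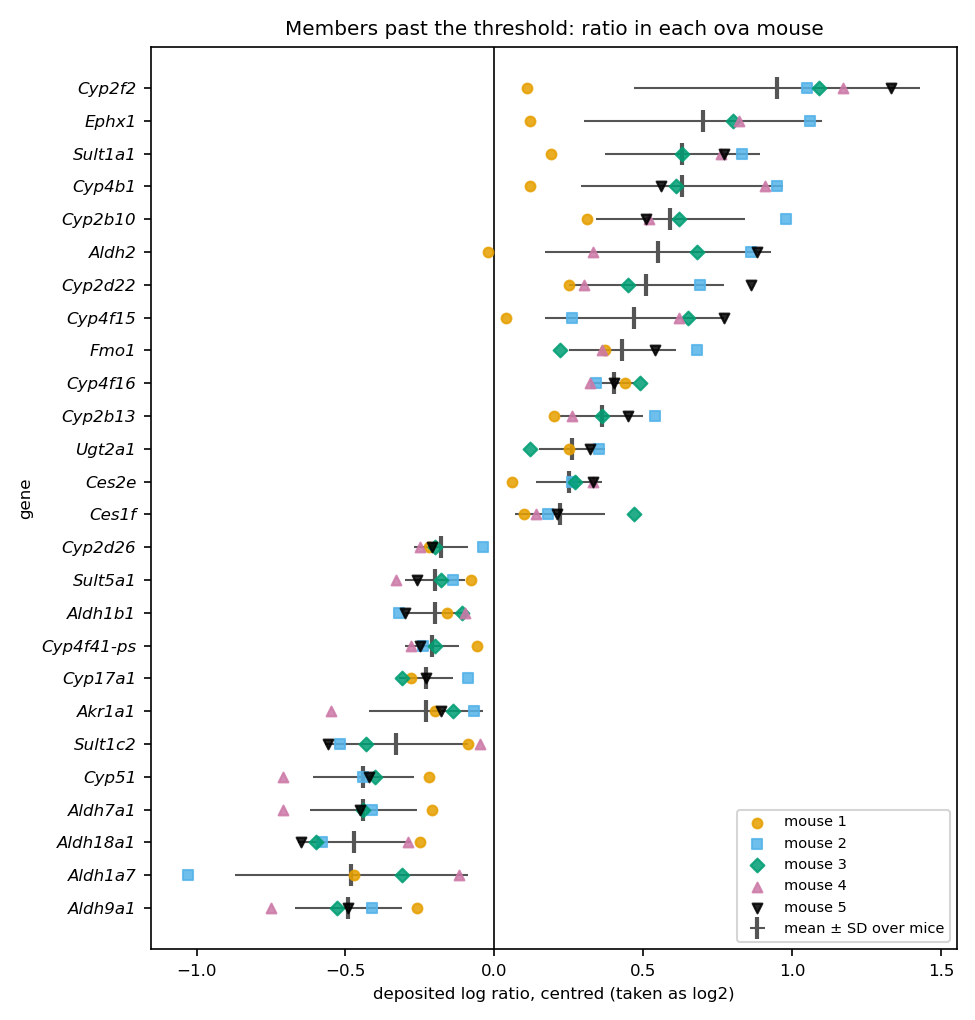
Log ratio (x axis, taken as log2, centred per array) of the 26 enzyme genes that passed, with 1 symbol per ova mouse and the mean ± SD over mice in grey. Mouse 1 lies nearest to 0 for Cyp2f2, Ephx1, Sult1a1 and Cyp4b1, and Aldh2 is the 1 gene whose mice lie on both sides of 0.

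The 3 P450 genes with the largest mean ratios, Cyp2f2, Cyp4b1 and Cyp2b10, were on the positive side. Cyp2f2, the club cell P450 that activates naphthalene, had ratios of 0.11, 1.05, 1.09, 1.17 and 1.33 in mice 1 to 5. Mouse 1 lay far below the other 4, which stood close together, and all 5 were above 0. The mean was 0.95 ± 0.48 (SD, n = 5; 1.93-fold if the base is 2; limma adjusted p = 0.00467). Without mouse 1 it was 1.16 (adjusted p = 6.33e-05). Cyp4b1, a lung P450 known for activating the furan 4-ipomeanol, had 0.12, 0.95, 0.61, 0.91 and 0.56. Mouse 1 was again the lowest, and the mean was 0.63 ± 0.34 (adjusted p = 0.00639). Cyp2b10, a P450 induced through the nuclear receptor CAR, had 0.31, 0.98, 0.62, 0.52 and 0.51, with mouse 2 the highest, and a mean of 0.59 ± 0.25 (adjusted p = 0.00326). Its relative Cyp2b13 had 0.20, 0.54, 0.36, 0.26 and 0.45, with mouse 1 the lowest and mouse 2 the highest, and a mean of 0.36 ± 0.14 (adjusted p = 0.00436). Cyp2b10 and Cyp2b13 are close copies, and how far their probes share signal was not tested.

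Cyp2f2, Cyp2b10 and Cyp2b13 belong to a gene cluster from which 6 genes were measured. The other genes of that cluster did not pass: Cyp2s1 had a mean of 0.09, Cyp2a4 0.01 (n = 4) and Cyp2g1 -0.16. Cyp2s1, a P450 of epithelia, was split between mice, at -0.08, -0.22, 0.28, 0.13 and 0.34 (adjusted p = 0.474). Within the cluster the means thus ran from -0.16 to 0.95.

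The Cyp2d genes that passed were 1 on each side. Cyp2d22 had 0.25, 0.69, 0.45, 0.30 and 0.86 in mice 1 to 5, all above 0, with a mean of 0.51 ± 0.26 (limma adjusted p = 0.00628). Cyp2d26 had -0.22, -0.04, -0.20, -0.25 and -0.21, all below 0, with a mean of -0.18 ± 0.09 (adjusted p = 0.0263). It did not pass without mouse 1, 3, 4 or 5 (adjusted p between 0.0666 and 0.0837). Cyp2d13 (-0.05) and Cyp2d40 (0.04, n = 4) did not pass. None of the Cyp2c genes, which in liver metabolise drugs and fatty acids, passed: Cyp2c37, Cyp2c39, Cyp2c40, Cyp2c55 and Cyp2c70 had means between -0.17 and 0.07. Cyp2j9 (0.04) did not pass either. Over the 16 Cyp2 genes, 4 passed above 0 (25%) and 1 below 0 (6.25%), against 12.3% and 15.2% of all genes.

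Of the 9 Cyp4 genes, whose enzymes hydroxylate the end of fatty acid chains and, in the Cyp4f group, of leukotrienes, 3 passed above 0 (33.3%) and 1 below 0 (11.1%), against 12.3% and 15.2% of all genes. Cyp4f16 had the smallest SD of the 26 genes that passed, at 0.44, 0.34, 0.49, 0.32 and 0.40 (mean 0.40 ± 0.07, limma adjusted p = 0.0013). Mouse 1, which was low for Cyp2f2 and Cyp4b1, was not low here. Cyp4f15 had 0.04, 0.26, 0.65, 0.62 and 0.77, with mice 1 and 2 the lowest (mean 0.47 ± 0.30, adjusted p = 0.0142). It did not pass without mouse 3 (adjusted p = 0.0599) or mouse 5 (0.0532). Cyp4f41-ps, annotated as a pseudogene of the same group, had -0.06, -0.24, -0.20, -0.28 and -0.25, all on the other side (mean -0.21 ± 0.09, adjusted p = 0.0171). It did not pass without mouse 2, 3 or 5 (adjusted p between 0.0531 and 0.0615). The Cyp4f genes are close copies too, and the sharing of signal between their probes was not tested. Cyp4f13 (0.05), Cyp4f14 (0.08, n = 4), Cyp4v3 (0.08), Cyp4a12a (0.10) and Cyp4a14 (0.05) did not pass.

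Of 6 P450 genes of other families, most of them of sterol, steroid or bile acid synthesis, 2 passed. Both lay below 0 (33.3%), against 15.2% of all genes. Cyp51, the lanosterol demethylase of cholesterol synthesis, had -0.22, -0.44, -0.40, -0.71 and -0.42 in mice 1 to 5. All were below 0, mouse 4 the farthest, and the mean was -0.44 ± 0.17 (limma adjusted p = 0.00367). Cyp17a1, a steroid hydroxylase of the gonad, had -0.28, -0.09, -0.31 and -0.23 in the 4 mice that measured it (mean -0.23 ± 0.09, adjusted p = 0.0268). Its call was lost without mouse 1, 3 or 5 (adjusted p between 0.0782 and 0.102). The adrenal hydroxylase genes Cyp11b2 (0.13) and Cyp21a1 (0.13), the bile acid gene Cyp8b1 (0.15) and Cyp20a1 (-0.17) did not pass. Cyp3a13 (0.14), of the drug-metabolising Cyp3a group, and Cyp1b1, which is induced through the aryl hydrocarbon receptor, did not pass either. Cyp1b1 had 0.13, -0.06, -0.23, -0.01 and -0.21 (mean -0.08 ± 0.15, adjusted p = 0.387).

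**Figure D2:**
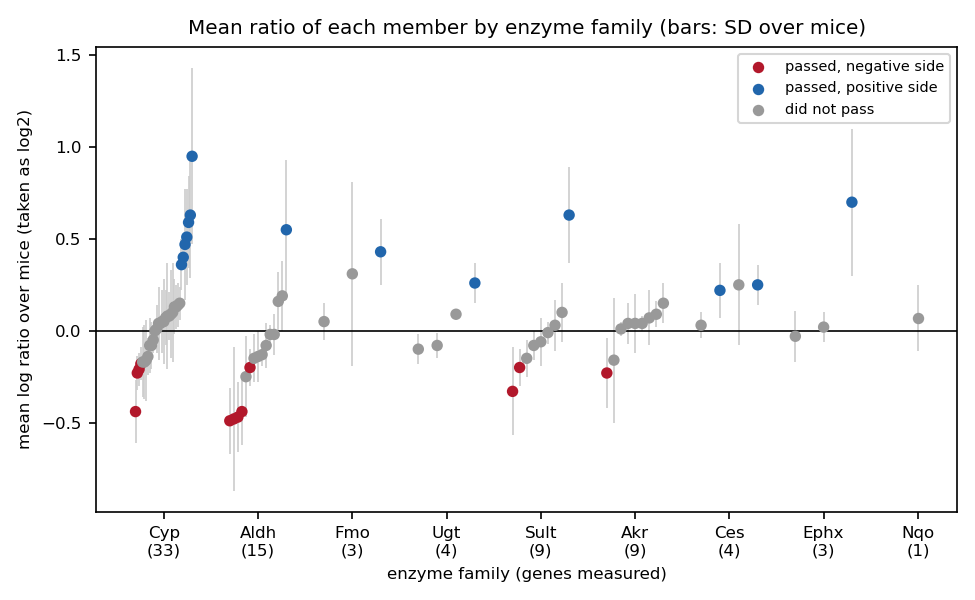
Mean log ratio over mice (y axis, taken as log2) of each of the 81 enzyme genes, grouped by family on the x axis, with grey bars for the SD over mice and colours for the side on which a gene passed. The Cyp family spans -0.44 to 0.95, and 4 of the 5 lowest genes of the whole set are aldehyde dehydrogenases.

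Of the 15 aldehyde dehydrogenase genes, 5 passed below 0 (33.3%) and 1 above 0 (6.67%), against 15.2% and 12.3% of all genes, and their median was -0.14. Whether they differ from the P450 genes was not tested. Several of the 5 are known for roles in amino acid and carnitine metabolism. Aldh9a1, an enzyme of carnitine synthesis, had -0.26, -0.41, -0.53, -0.75 and -0.49 (mean -0.49 ± 0.18, limma adjusted p = 0.00281). Aldh18a1, which makes the precursor of proline and ornithine from glutamate, had -0.25, -0.58, -0.60, -0.29 and -0.65 (mean -0.47 ± 0.19, adjusted p = 0.00349). Aldh7a1, the lysine catabolism enzyme antiquitin, had -0.21, -0.41, -0.44, -0.71 and -0.45 (mean -0.44 ± 0.18, adjusted p = 0.00379). In each of these genes all mice lay below 0 and mouse 1 nearest to it. Aldh1b1, a mitochondrial enzyme, had -0.16, -0.32, -0.11, -0.10 and -0.30 (mean -0.20 ± 0.10, adjusted p = 0.0268). It did not pass without mouse 2, 3 or 5 (adjusted p between 0.0528 and 0.0942).

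Aldh2, the mitochondrial enzyme that clears acetaldehyde, was the 1 that passed above 0. It had -0.02, 0.86, 0.68, 0.33 and 0.88 in mice 1 to 5, so that mouse 1 lay just below 0 and the other 4 above it. Its mean of 0.55 ± 0.38 passed (limma adjusted p = 0.0172), but not without mouse 2, 3 or 5 (adjusted p between 0.0583 and 0.0681).

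The genes of the retinal dehydrogenases, which make retinoic acid, were close to 0 or on the negative side. Aldh1a1, also abundant in club cells, had -0.10, 0.03, 0.00, 0.00 and -0.02, with a mean of -0.02 ± 0.05 (limma adjusted p = 0.81). Aldh1a2 had 0.05, -0.24, -0.11 and -0.03 in mice 1, 2, 3 and 5 (mean -0.08 ± 0.12, adjusted p = 0.38). Aldh1a3 had -0.11, -0.34, -0.03, -0.18 and -0.58, all below 0, with a mean of -0.25 ± 0.22 that missed the threshold (adjusted p = 0.0544). Aldh1a7, the close relative that neighbours Aldh1a1, had -0.47, -1.03, -0.31 and -0.12 in mice 1 to 4 and no value in mouse 5. Mouse 2 lay far below the others, and the mean of -0.48 ± 0.39 passed (adjusted p = 0.04). The call of Aldh1a7 did not hold without mouse 1, 2 or 3 (adjusted p between 0.057 and 0.0846). The fit without mouse 5 removed none of its values and left the mean at -0.48, but the adjusted p was 0.06. Aldh16a1 (-0.15), Aldh3b3 (-0.14), the folate enzyme gene Aldh1l1 (-0.13), Aldh5a1 (-0.02), the fatty aldehyde dehydrogenase gene Aldh3a2 (0.16) and Aldh6a1 (0.19) did not pass.

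Of the remaining phase I genes, Ephx1, the microsomal epoxide hydrolase that acts on the epoxides made by P450s, had 0.12, 1.06, 0.80 and 0.82 in mice 1 to 4 and no value in mouse 5. Mouse 1 was again low, and the mean was 0.70 ± 0.40 (n = 4, limma adjusted p = 0.0124, and 0.0596 without mouse 3). Ephx2, the soluble epoxide hydrolase of fatty acid epoxides, had 0.14, 0.02, -0.25, -0.01 and -0.05 (mean -0.03 ± 0.14, adjusted p = 0.75), and Ephx3 a mean of 0.02. The microsomal enzyme's gene thus passed and the other 2 did not, and the difference between them was not tested. Fmo1, a flavin monooxygenase, had 0.37, 0.68, 0.22, 0.36 and 0.54, all above 0 (mean 0.43 ± 0.18, adjusted p = 0.00406). Its neighbour Fmo2, the main flavin monooxygenase of mammalian lung, had 0.29, 0.98, 0.31, -0.42 and 0.41. Mouse 4 lay on the other side of 0, and the mean of 0.31 ± 0.50 did not pass (adjusted p = 0.192). Without mouse 4 the mean was 0.50 and passed (adjusted p = 0.0291). Fmo5 (0.05) did not pass.

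The carboxylesterase genes had means above 0. Ces2e had 0.06, 0.26, 0.27, 0.33 and 0.33, with mouse 1 apart (mean 0.25 ± 0.11, limma adjusted p = 0.0119). Ces1f had a mean of 0.22 ± 0.15 (adjusted p = 0.0346) and was highest in mouse 3, at 0.47; without mouse 2, 3, 4 or 5 it did not pass (adjusted p between 0.0547 and 0.092). Ces1e reached 0.61 in mouse 5 and -0.24 in mouse 4 and did not pass (mean 0.25 ± 0.33, adjusted p = 0.137), nor did Ces1c (0.03). The Ces1 genes are close copies in 1 cluster, and how far their probes share signal was not tested.

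The aldo-keto reductases showed the smallest ratios of the larger families. Of 9 genes 1 passed (11.1%), against 27.5% of all genes, and the median size was 0.07, against 0.11 over all genes. Akr1a1, the aldehyde reductase that also serves ascorbate synthesis in mice, had -0.20, -0.07, -0.14, -0.55 and -0.18 (mean -0.23 ± 0.19, limma adjusted p = 0.0487). Mouse 4 stood apart from the rest. The call was lost in each fit that left out 1 mouse (adjusted p between 0.0576 and 0.106) and with probes measured on at least 3 arrays (0.0519). Akr1b10, Akr1c6, Akr1c20 (n = 4), Akr1c21, Akr1cl and Akr1d1 had means between 0.01 and 0.09, Akr7a5 had 0.15 and Akr1e1 -0.16, with mice between -0.53 and 0.32. Nqo1, the quinone reductase used as a marker of the Nrf2 oxidant response, had 0.13, 0.28, -0.18, 0.00 and 0.15 (mean 0.07 ± 0.18, adjusted p = 0.457), so that its mice lay on both sides of 0.

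Among conjugating enzymes, Sult1a1, the phenol sulphotransferase, had 0.19, 0.83, 0.63, 0.76 and 0.77. Mouse 1 was low and the other 4 lay close together, with a mean of 0.63 ± 0.26 (limma adjusted p = 0.00281). Sult1c2 lay on the other side at -0.09, -0.52, -0.43, -0.05 and -0.56 (mean -0.33 ± 0.24, adjusted p = 0.0268), with mice 1 and 4 near 0. It did not pass without mouse 2, 3 or 5 (adjusted p between 0.0857 and 0.0954). Sult5a1 had -0.08, -0.14, -0.18, -0.33 and -0.26 (mean -0.20 ± 0.10, adjusted p = 0.0251), and its call was lost without mouse 2, 3, 4 or 5 (adjusted p between 0.0515 and 0.0865). Sult1d1, a sulphotransferase of catecholamines, had -0.13, -0.18, -0.18, 0.01 and -0.27, with a mean of -0.15 ± 0.10 that did not pass (adjusted p = 0.0661). Sult1b1 (0.10), Sult1c1 (-0.06), the oestrogen sulphotransferase gene Sult1e1 (0.03, n = 4), Sult2a8 (-0.08) and Sult4a1 (-0.01, n = 4) did not pass. Of 4 glucuronosyltransferase genes, Ugt2a1, known from olfactory epithelium, passed at 0.25, 0.35, 0.12 and 0.32 (mean 0.26 ± 0.11, n = 4, adjusted p = 0.0184; 0.0697 and 0.0759 without mouse 2 or 5). Ugt1a9 (0.09, n = 4), Ugt2a3 (-0.08) and Ugt3a2 (-0.10) did not, so that 1 of 4 passed (25%), against 27.5% of all genes.

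Several classical genes of the field could not be followed. Of the 119 genes whose symbols match these families, 38 had too few values, 19 of them none at all and 19 on 1 to 3 arrays. Cyp1a1, the main target of the aryl hydrocarbon receptor, had deposited values of 0.065 in mouse 3 and 0.109 in mouse 4 only. Cyp2e1 had a value in mouse 2 only, and Aldh3a1, Cyp27a1 and Nqo2 had none. Akr1b8, with 3 values, had deposited ratios between -0.365 and -0.087. Cyp2u1, also with 3 values, had -0.29, -0.008 and -1.144. No test was made on these genes.

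The genes of the supporting machinery were counted next, from lists chosen with earlier results of these data known. Of 14 measured electron partners, regulators and cofactor enzymes, 3 passed above 0 (21.4%) and 0 below 0, against 12.3% and 15.2% of all genes. Cyb5a, the cytochrome b5 that passes electrons to P450s, had 0.40, 0.52, 0.67, 0.48 and 0.68 (mean 0.55 ± 0.12, limma adjusted p = 0.000907). Its mice lay close together, mouse 1 included. Arnt, the dimer partner of the aryl hydrocarbon receptor, had a mean of 0.31 ± 0.19 (adjusted p = 0.0183), and Keap1, the inhibitor of Nrf2, 0.15 ± 0.07 (adjusted p = 0.0445). Of 18 other conjugating, reducing and transporting enzymes, 5 passed above 0 (27.8%) and 1 below 0 (5.56%), against the same shares of all genes. The paraoxonase gene Pon1 (0.77 ± 0.21, n = 4), the indolethylamine methyltransferase gene Inmt (0.93 ± 0.56) and the drug efflux pump gene Abcb1a (0.54 ± 0.32) had the smallest p.

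Nrf2 target genes outside the families passed on both sides, 7 of 20 below 0 (35%) and 6 above 0 (30%). Among all genes the shares were 15.2% and 12.3%. The glutathione reductase gene Gsr (-0.57 ± 0.09, limma adjusted p = 0.000581) and Gclc, a gene of glutathione synthesis (-1.04 ± 0.31), lay on the negative side. The glutathione transferase gene Gstm2 (0.78 ± 0.25) lay on the positive side, where Cyp2f2 and Ephx1 were. Nqo1, from the same set of target genes, lay between them. Sterol synthesis genes passed only on the side of Cyp51 in this fit, 5 of 11 below 0 (45.5%) and 0 above 0. Fdps (-0.28 ± 0.10), Dhcr7 (-0.48 ± 0.28) and Ebp (-0.22 ± 0.15) had the smallest p, while the list's median was -0.06.

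Of 8 retinoid handling genes 2 passed, both on the negative side (25%), against 15.2% of all genes. They were Lrat, which esterifies retinol, at -0.38 ± 0.22 and the retinol uptake receptor gene Stra6 at -0.23 ± 0.18. Crabp1, with the next smallest p, had 0.18 ± 0.13 and did not pass (limma adjusted p = 0.0513). Of 10 oxysterol, steroid and vitamin D genes, 2 passed below 0 (20%) and 1 above 0 (10%), against 15.2% and 12.3% of all genes. These were the cholesterol hydroxylase gene Ch25h (-0.75 ± 0.41), the lipid exporter gene Abca1 (-0.34 ± 0.20) and Hsd11b1, which regenerates active glucocorticoid (0.57 ± 0.36). Of 11 eicosanoid genes 5 passed below 0 (45.5%) and 1 above 0 (9.09%), against the same shares of all genes. Alox15 (-0.96 ± 0.53), Ptgr1 (-0.60 ± 0.35) and the leukotriene C4 synthase gene Ltc4s (-0.68 ± 0.44) had the smallest p of that list.

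**Figure D3:**
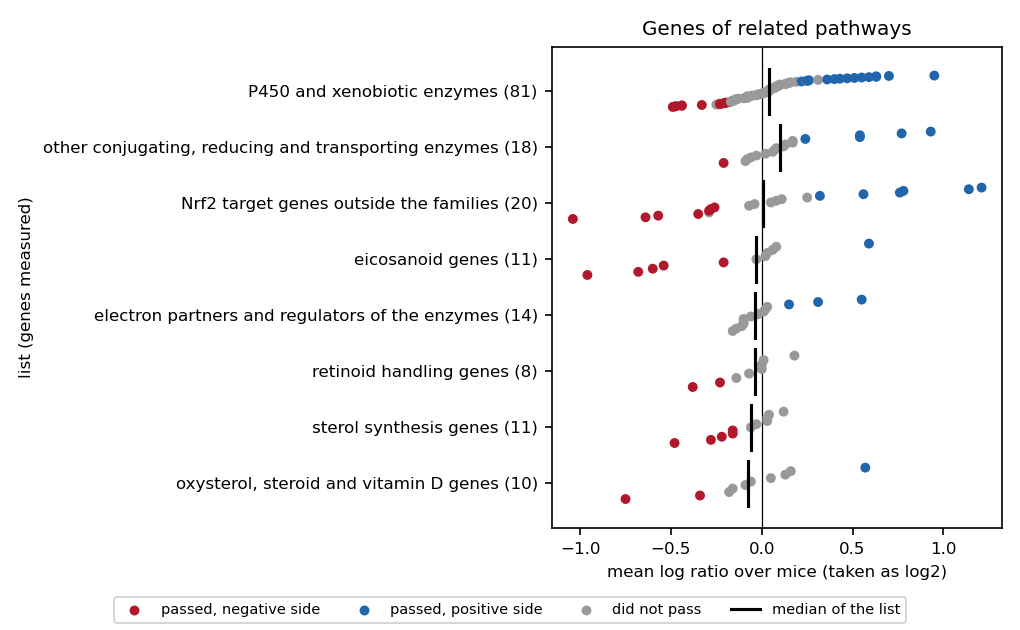
Mean log ratio over mice (x axis, taken as log2) of each gene in 7 lists of related pathways and of the 81 enzyme genes, 1 dot per gene, coloured by the side on which it passed, with a bar at the list's median. The Nrf2 targets spread from -1.04 to 1.21, and the sterol synthesis genes that passed lie on the negative side.

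Whole lung was measured, so fewer cells of a type and less RNA per cell cannot be told apart. Of 8 club cell markers measured, 2 passed on the positive side, which were Scgb1a1 at 0.28, 0.53, 0.88 and 1.09 (mean 0.70 ± 0.36, n = 4, limma adjusted p = 0.00897) and the carbonyl reductase gene Cbr2 (0.54 ± 0.49, adjusted p = 0.0398). The defining marker Scgb1a1 thus lay on the side of Cyp2f2, and the other 6 did not pass, Scgb3a2 at 0.20 (n = 4) and Aldh1a1 among them. Cbr2 was also counted among the other conjugating, reducing and transporting enzymes. The club cell list had a median of 0.01 and a range of -0.21 to 0.70. Its share that passed on the positive side was 25%. Among all genes 12.3% passed on that side and 15.2% on the negative side. Of the alveolar type 1 cell markers 5 of 6 passed on the positive side (range 0.15 to 0.66) and of the endothelial markers 4 of 5 (range 0.20 to 0.82). Of the alveolar type 2 cell markers 2 passed above 0 and 1 below 0, of 5 (range -0.47 to 0.67). The part of cell numbers in the ratios of the enzyme genes was not tested.

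The markers of several leukocyte types that passed lay mostly on the side of Cyp51 and Aldh9a1. Among all genes 15.2% passed on that side and 12.3% on the positive side. Of 5 macrophage markers 4 passed on the negative side (range -1.99 to -0.24), of 3 neutrophil markers 3 (range -1.13 to -0.45), and of 5 eosinophil markers 3, with 1, Siglecf, on the positive side (range -4.23 to 0.30). The eosinophil marker Alox15 was also counted among the eicosanoid genes. Of 5 B cell markers 4 passed on the negative side (range -0.55 to -0.18), while the 3 T cell markers did not pass (Cd3e -0.15, Cd8a -0.09 and Cd3d 0.07). Of 6 goblet cell markers 6 passed on the negative side (range -4.33 to -0.47). Markers of the liver, the organ richest in many of these enzymes, did not pass: 0 of 3 hepatocyte genes, with means between -0.12 and 0.01. Of the 2 adipocyte markers both passed on the positive side (0.19 and 1.11), and of 4 heart muscle markers 1 did.

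**Figure D4:**
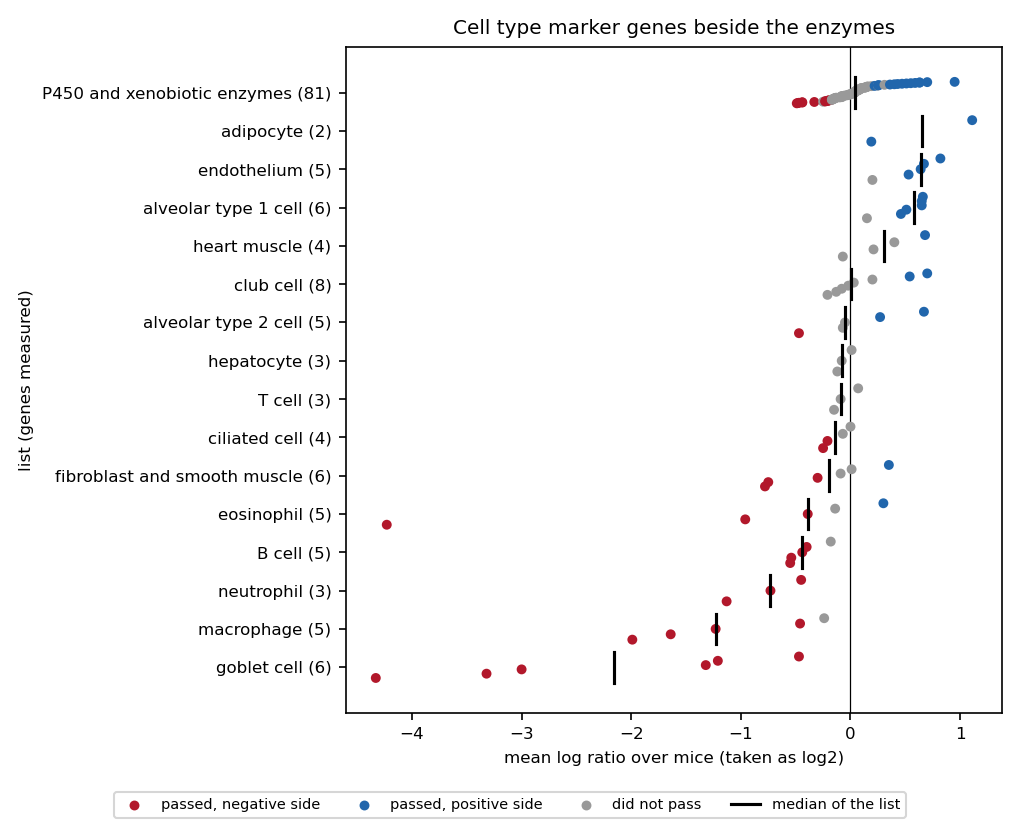
Mean log ratio over mice (x axis, taken as log2) of each marker gene of 15 cell types and of the 81 enzyme genes, 1 dot per gene, coloured by the side on which it passed, with a bar at the list's median. Goblet cell markers lie between -4.33 and -0.47, endothelial markers between 0.20 and 0.82.

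Mouse 1 had smaller ratios than the other mice, which touches the means above. Over the enzyme genes the SD was 0.17 there, against 0.32 to 0.39 in mice 2 to 5, and over all probes 0.20, against 0.32 to 0.38. Over the 26 genes that passed, the ratio in mouse 1 was 0.443 of the mean of the other mice (median), and in mice 2 to 5 it was between 1.03 and 1.3. Across the enzyme genes the 10 pairs of arrays had Pearson's r from 0.392 to 0.858. All arrays share the control pool, which raises these correlations by an unknown amount, and genes are not independent replicates. Pairs of arrays had between 9 and 36 identical values, so no array copied another.

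Probe IDs at distances of 6, 18 and 24 had correlated mean ratios across the table (r = 0.16, 0.1 and 0.11). At the other distances up to 60, r was between -0.018 and 0.042. Pairs naming the same gene were left out, pairs with an unnamed probe were kept, and large means were capped. Of the 26 genes that passed, 7 had a probe of larger ratio on the same side at a distance of 6, 18 or 24: Aldh7a1, Akr1a1, Cyp17a1, Cyp2d26, Sult5a1, Cyp4f16 and Ugt2a1. Beside Aldh7a1 (-0.44) these were Ifi30 at -0.67 and Arhgap4 at -0.57, and beside Cyp4f16 (0.40) Rpl39 at 0.53. The probe of Cyp2f2 had no larger one on its side. Genes that did not pass had such neighbours too, among them Nqo1 (0.07) with Car3 at 1.44. The share over all genes was not counted, so the 7 have no rate to be set against. The part of such neighbours in the ratios was not tested.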

How the data were processed

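The authors deposited 1 log ratio per probe and array, read here in the unit log2; its base, numerator, dyes, background correction and normalization are not stated in any source used here. The largest size, 5.168, exceeds the log10 range of a 16-bit scanner (4.82), so base 10 does not apply, and under the natural log every fold would be larger. Spot brightness was not used here. An array measured between 11778 and 13320 of 17280 probes, and the number of arrays limits the precision.

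Gene symbols came from the platform annotation, with 14722 probes naming 1 gene, 1 probe naming several and 2557 unnamed. Among probes naming 1 gene, 14445 had a gene ID in the RefSeq table of GRCm38.p6, which changed 0 symbols. After subtracting the median of each array, probes with at least 4 values were averaged per gene, and 9715 genes were fitted with limma 3.58.1 in R 4.3.3 (intercept, eBayes, two-sided, Benjamini-Hochberg, threshold 0.05). The code was tested on simulated data. The control pool counts as 1 control sample, so p-values measure the spread among ova mice and leave out that among control mice. A dye effect constant across arrays cannot be told apart from the comparison.

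The enzyme genes and all gene lists were chosen with earlier results of these data known. Ratios per mouse are given for the 12 genes of largest mean on each side among those that passed and lay on 1 side in every array, and for 18 of 29 listed enzymes that were measured. Other list genes were named as defining markers or as the 3 of smallest p. Alternatives were no centring, quantile or scale normalization, other minimum numbers of arrays, other ways to average probes, probes tested singly, other moderation, array weights and leaving out each mouse.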

Additional observations from a re-analysis of the deposited data

Results flagged for a closer look

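In 4 of the 35 enzyme genes examined, 1 mouse lay farther from the others than Dixon's test at 95% allows. For independent normal values chance alone would give such a gap in about 1 of 20 genes. These genes share the arrays and the pool, and 26 of them were taken because they passed, so that rate may not hold here. Mouse 1 had smaller ratios over all probes (SD 0.20, against 0.32 to 0.38 in mice 2 to 5). Cyp2f2 had a ratio of 0.11 in mouse 1, with the nearest other mouse at 1.05. Ces2e had 0.06 in mouse 1, with the nearest at 0.26. Akr1a1 had -0.55 in mouse 4, with the nearest at -0.20. Cyp2d26 had -0.04 in mouse 2, with the nearest at -0.20.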

How the results depend on the processing

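Single genes were followed under 14 alternatives, which leave out the probes tested singly. Under these 14 no gene that passed changed side, and 13 of the 26 passed under every alternative: Aldh9a1, Aldh18a1, Aldh7a1, Cyp51, Cyp2f2, Sult1a1, Cyp4b1, Cyp2b10, Cyp2d22, Fmo1, Cyp4f16, Cyp2b13 and Ces2e. The other 13 lost the call at least once among the 14. In each case this was when a mouse was left out and, for Akr1a1, also with probes measured on at least 3 arrays. With probes tested singly 11 enzyme genes passed on the negative side, and which genes these were was not followed. The fits without a mouse had fewer samples, and the fit with at least 3 arrays tested 10677 genes, against 9715. Leaving out 1 mouse gave between 4 and 10 genes past the threshold on the negative side, against 12 with all mice. The share over all genes was then 9.27% to 14.4%, against 15.2%. On the positive side between 10 and 15 passed, against 14. The share over all genes on that side was 6.71% to 11.3%, against 12.3%. These fits held 82 to 86 enzyme genes, against 81. The count on the negative side was lowest without mouse 2 (6), mouse 3 (6) and mouse 5 (4), where the share over all genes was 11.3%, 9.27% and 9.28%, against 15.2% with all mice. Under the other alternatives the negative count was between 10 and 14, and the share over all genes 13.9% to 17.3%. The positive count was between 12 and 14, and the share over all genes 11.2% to 14.2%. Those fits held 68 to 88 enzyme genes. Of 9 genes followed that did not pass, 3 passed at least once: Aldh1a3 with quantile normalization (adjusted p = 0.031), Sult1d1 without mouse 4 (0.0345) and Fmo2 without mouse 4 (0.0291). No paired analysis was possible because the series has 1 group of arrays, each against the same pool.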
